A study of Mus musculus with 4 samples.

Results

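The genes described here copy DNA in S phase and supply its building blocks. They are 47 genes chosen by name: subunits of the origin recognition complex, factors that fire origins, the sliding clamp and its loader, the single-strand binding protein RPA, polymerases and primase, enzymes that finish the lagging strand, enzymes of deoxynucleotide supply, the CAF-1 and NASP histone chaperones, the pair that maintains DNA methylation, and G1/S regulators. The choice by name used no threshold on these arrays, though it was made with earlier results of these data known. Of the 47, 43 had at least 1 probe on the array under their current or an older symbol (64 probes), and 36 had a probe detected on at least 2 of the 4 arrays and were tested, among 8047 genes tested in all. Orc1, Orc2, Gins3, Pcna, Pola1, Prim1 and Pole2 had probes that were detected on 0 of the 4 arrays, so these 7 genes have no measured level. Gins1, Gins2, Rfc3 and Rnaseh2a had no probe named for them and were not analysed here.

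The study asked what loss of H3f3b, which with H3f3a encodes the histone variant H3.3, does to gene expression in mouse embryonic fibroblasts (MEFs), the connective tissue cells that grow out in culture from a minced embryo. The KO group held 2 lines from H3f3b -/- embryos, in which a floxed coding region had been deleted in the germ line by Zp3Cre, and the WT group held 2 lines from embryos with H3f3b intact. All 4 lines came from C57BL6J embryos at day 12.5 (E12.5) of crosses between heterozygotes, are said to be littermates, and had been given the retroviral vector pBabe puro as a stable insert. Each line was grown from 1 embryo, and total RNA of each was measured on 1 Illumina bead array, so n is 2 lines per genotype and the spread between lines includes the spread between embryos.

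Replication starts where the origin recognition complex has marked DNA and the MCM helicase has been loaded. The kinase made of Cdc7 and Dbf4, with Cdc45 and the GINS complex, turns this helicase on; primase and DNA polymerase alpha then lay down primers, clamp loaders place PCNA on them, and polymerases delta and epsilon extend the strands. In cells that leave quiescence, E2F transcription factors switch many of these genes on together shortly before S phase, so that their mRNA is commonly read as a sign of how many cells of a culture are dividing. CAF-1 then puts the canonical histones H3.1 and H3.2 onto new DNA, while H3.3 is also placed outside of S phase by other chaperones.

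The promoters of the members were read for the DNA word that E2F factors bind, since it is the sequence the group is best known to share. The windows, from RefSeq on GRCm38.p6, run from 250 bases before to 50 bases after each annotated start, and were found for 40 of the 47 genes. TTTCCCGC, TTTCGCGC, TTTGCCGC or TTTGGCGC on either strand stood in 11 of these 40 genes (27.5%), against 575 of 17492 protein-coding genes (3.29%). Counted by windows, of which a gene can have several, it was 21.6% for the members and 2.85% for all. Of the 31 tested members with a window, 6 held the word (19.4%): Orc3, Pold1, Pold3, Lig1, Uhrf1 and Dnmt1. The CHR word TTTGAA, known from genes of G2 and mitosis, was about as common in the members (20% of genes) as in all genes (18.5%), and CCAAT stood in 55.0% of the members and 42.3% of all genes. All words were sought on both strands, and none of them contains another. A match is a description of the sequence and not a measured site. The windows of 4 of the 6 tested members with the word are printed 5′ to 3′ on the strand of the gene, with the E2F word in capitals: Pold3, Uhrf1 and Dnmt1, which had the lowest KO minus WT differences of the 6, and Orc3, which had a difference above 0. In Dnmt1 the first of the 2 words is on the opposite strand.
Pold3 (chr7:100121453-100121752, minus strand): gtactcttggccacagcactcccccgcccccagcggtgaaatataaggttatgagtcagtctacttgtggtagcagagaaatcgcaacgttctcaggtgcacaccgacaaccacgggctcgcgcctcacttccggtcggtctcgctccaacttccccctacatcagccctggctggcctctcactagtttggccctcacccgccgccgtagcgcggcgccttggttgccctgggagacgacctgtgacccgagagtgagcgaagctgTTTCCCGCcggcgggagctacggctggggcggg
Uhrf1 (chr17:56304063-56304362, plus strand): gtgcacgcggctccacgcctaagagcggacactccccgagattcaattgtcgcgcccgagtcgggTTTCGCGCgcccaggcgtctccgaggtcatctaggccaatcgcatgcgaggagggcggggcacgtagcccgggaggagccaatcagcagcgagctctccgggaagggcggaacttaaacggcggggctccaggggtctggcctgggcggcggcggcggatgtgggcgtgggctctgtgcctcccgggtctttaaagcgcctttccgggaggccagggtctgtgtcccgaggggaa
Dnmt1 (chr9:20952574-20952873, minus strand): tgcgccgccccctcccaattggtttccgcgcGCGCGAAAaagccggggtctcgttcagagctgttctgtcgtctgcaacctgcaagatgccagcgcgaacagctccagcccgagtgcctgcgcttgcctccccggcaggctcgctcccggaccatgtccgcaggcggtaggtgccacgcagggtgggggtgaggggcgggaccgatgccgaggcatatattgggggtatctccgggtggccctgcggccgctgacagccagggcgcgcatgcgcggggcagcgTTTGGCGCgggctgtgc
Orc3 (chr4:34614893-34615192, minus strand): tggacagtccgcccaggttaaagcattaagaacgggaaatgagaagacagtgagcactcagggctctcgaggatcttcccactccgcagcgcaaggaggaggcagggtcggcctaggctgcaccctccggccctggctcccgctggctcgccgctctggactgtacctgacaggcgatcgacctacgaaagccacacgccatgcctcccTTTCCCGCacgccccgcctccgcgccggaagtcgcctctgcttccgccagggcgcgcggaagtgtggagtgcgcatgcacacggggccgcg
The word begins 41 bases before the start in Orc3 and 185 bases before it in Uhrf1, lies 18 bases into the transcript in Pold3, and in Dnmt1 stands both 219 bases before and 34 bases after the start.

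The arrays were of like quality, with 1 of them apart. The H3f3b probe read 97.3 and 98.7 signal units in the KO lines, where it was not detected, against 1735.7 and 1686.2 in the WT lines, which was at least 69.5-fold lower in KO (adjusted p = 3.05e-05, limma). The number of probes detected was 11415 to 11543 in KO and 11202 to 11341 in WT of 25697, and the mean signal was 381 to 382 in KO and 291 to 294 in WT. Over all tested probes, WT replicate 2 correlated with the other arrays at 0.978 to 0.981, against 0.985 to 0.990 among the other 3, so values are also given without it where it decides them. All 11 fibroblast markers with a probe, among them the collagens Col1a1 and Col3a1, were detected on all 4 arrays, with a summed level of 31200 and 30744 in KO and 33710 and 29603 in WT, and 10 of the 11 were lower in KO (median difference -0.28). Of 12 macrophage markers with a probe, 10 were detected on both KO arrays, and 11 and 10 on the WT arrays, with a summed level of 24613 and 19009 in KO and 16058 and 13427 in WT, while Ptprc was detected on 0 arrays. All 10 tested macrophage markers were higher in KO (median difference 0.67). Endothelial markers were detected on 0 arrays (0 of 6). Of the other lists, 1 or 2 of 6 epithelial, 2 to 4 of 7 neural, 0 or 1 of 5 erythroid and 2 of 5 muscle markers were detected on each array. The muscle pair, Acta1 and Des, summed to 2092 and 2681 in KO and 1303 and 816 in WT with the 3 undetected muscle probes included.

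In H3f3b KO MEFs most of the genes were slightly lower than in WT, by amounts that did not pass the test. Values are log2 signals after background correction and quantile normalization, differences are KO minus WT with the standard error (SE) of the model, and replicate 1 precedes replicate 2 wherever a pair of lines is given. Of the 36 tested genes, 28 had a difference below 0 (77.8%) and 8 above it, where 47.6% of all genes tested were below 0, and the median difference was -0.20 against 0.01 for all genes. Differences ran between -0.71 for Ccne2 and 0.28 for Rfc5, and 33 of the 36 were smaller than 1.5-fold, as were 7623 of all 8047 genes tested. At an adjusted p under 0.05 (limma, Benjamini-Hochberg over all probes tested), 0 of the 36 passed, with adjusted p-values between 0.574 and 0.997; over all genes that threshold was passed by H3f3b alone (0.0124%). At an unadjusted p under 0.05 on the brightest tested probe, 1 member was lower (Rfc4) and 0 were higher, against 3.54% of all genes lower and 4.59% higher. The 95% interval excluded a decrease of 2-fold for 30 of the 36 genes, and for 7666 of all 8047 genes tested. What could have gone undetected for those 30 is a smaller change.

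WT replicate 2 stood above the other arrays for most of the 36 genes. Set against the mean of the 4 arrays, their median lay at -0.01 on the first KO array and at -0.17 on the second, against -0.10 on the first WT array and 0.32 on the second, which is WT replicate 2. WT replicate 2 was the highest of the 4 arrays for 25 of the 36 (69.4%), where this held for 29% of all genes, and KO replicate 2 was the lowest for 18 (50%), where this held for 21.8% of all genes. Between the WT lines, 32 of the 36 genes were higher in replicate 2 (88.9%, against 49.97% of all genes), with a median gap of 0.36 log2 units and a gap of at least 1.5-fold in 9 (25%, against 5.78% of all genes). The gap between the WT lines exceeded the KO minus WT difference in size for 25 (69.4%), close to the 61.9% of all genes. Both KO lines lay below WT replicate 2 for 26 genes (72.2%, against 35.9% of all genes). Both KO lines lay below WT replicate 1 for 11 (30.6%, against 33.1% of all genes). Without WT replicate 2, 20 of the 36 genes were lower in KO and the median difference was -0.02; without WT replicate 1 they were 32 and -0.37. The macrophage markers ran the other way, with WT replicate 2 the lowest array for 9 of the 10 tested, and their part in the result was not tested. In RNA from whole cultures, fewer cells in S phase and less of each mRNA per cell cannot be told apart.

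**Figure D1:**
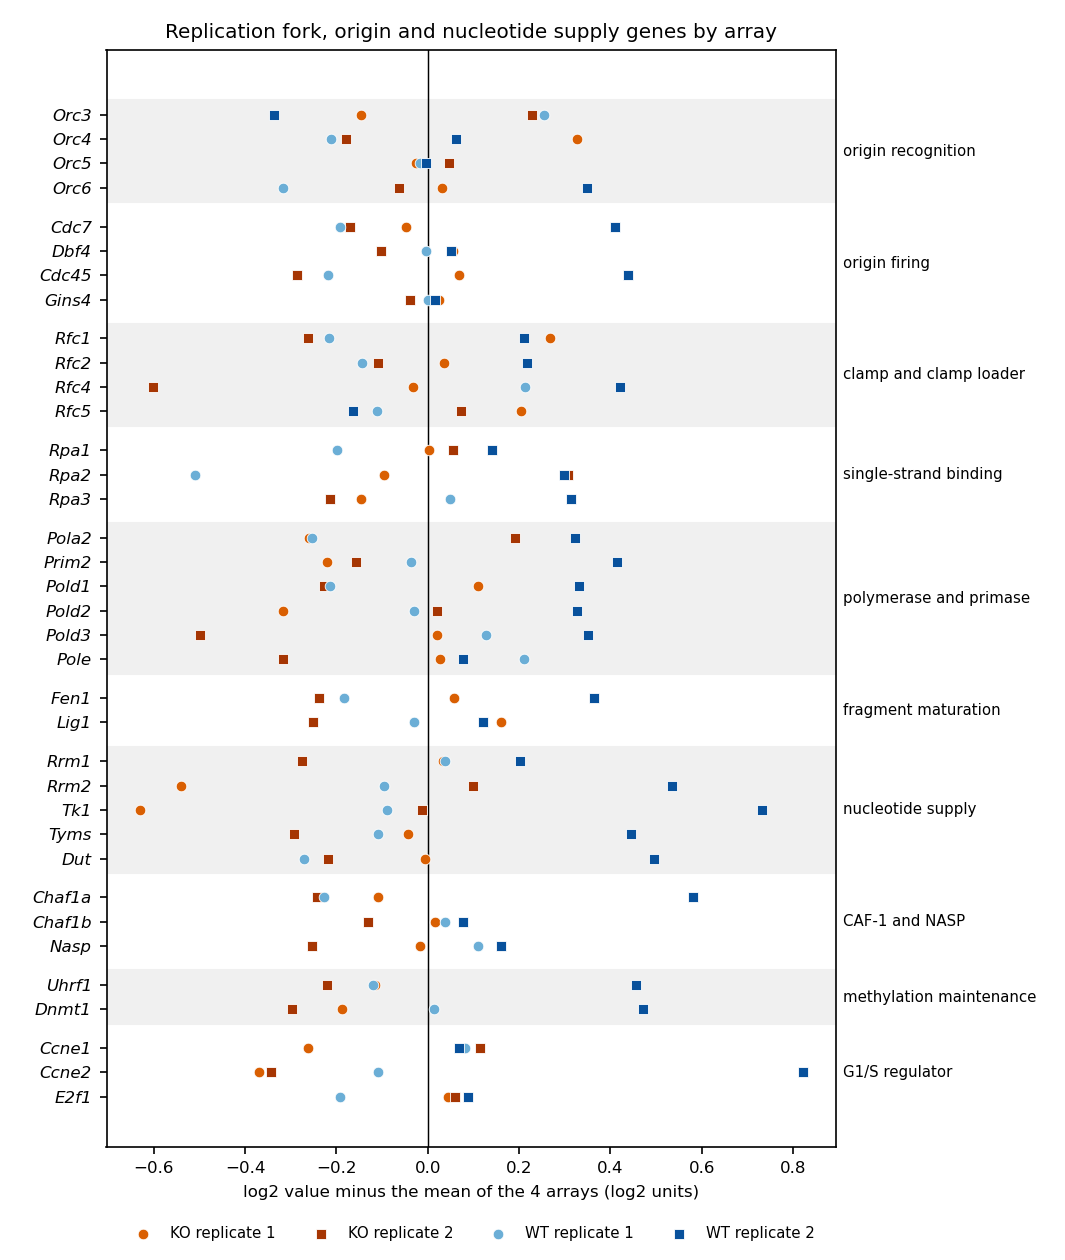
Each row is 1 of the 36 tested genes and each point 1 array, placed on the x axis by its log2 value minus the mean of the 4 arrays; circles are replicate 1 and squares replicate 2 of KO (orange) and WT (blue). The dark blue squares of WT replicate 2 lie to the right of the other 3 arrays for 25 of the 36 genes.

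Both KO lines were below both WT lines for 10 of the 36 genes (27.8%, against 17.1% of all genes), above both for 1, and overlapped WT for 25. On the brightest tested probe of each gene, the 10 were Rfc4, Rpa3, Prim2, Pold3, Pole, Rrm1, Chaf1b, Nasp, Dnmt1 and Ccne2. The 1 above was Rfc5, where 21% of all genes lay above.

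**Figure D2:**
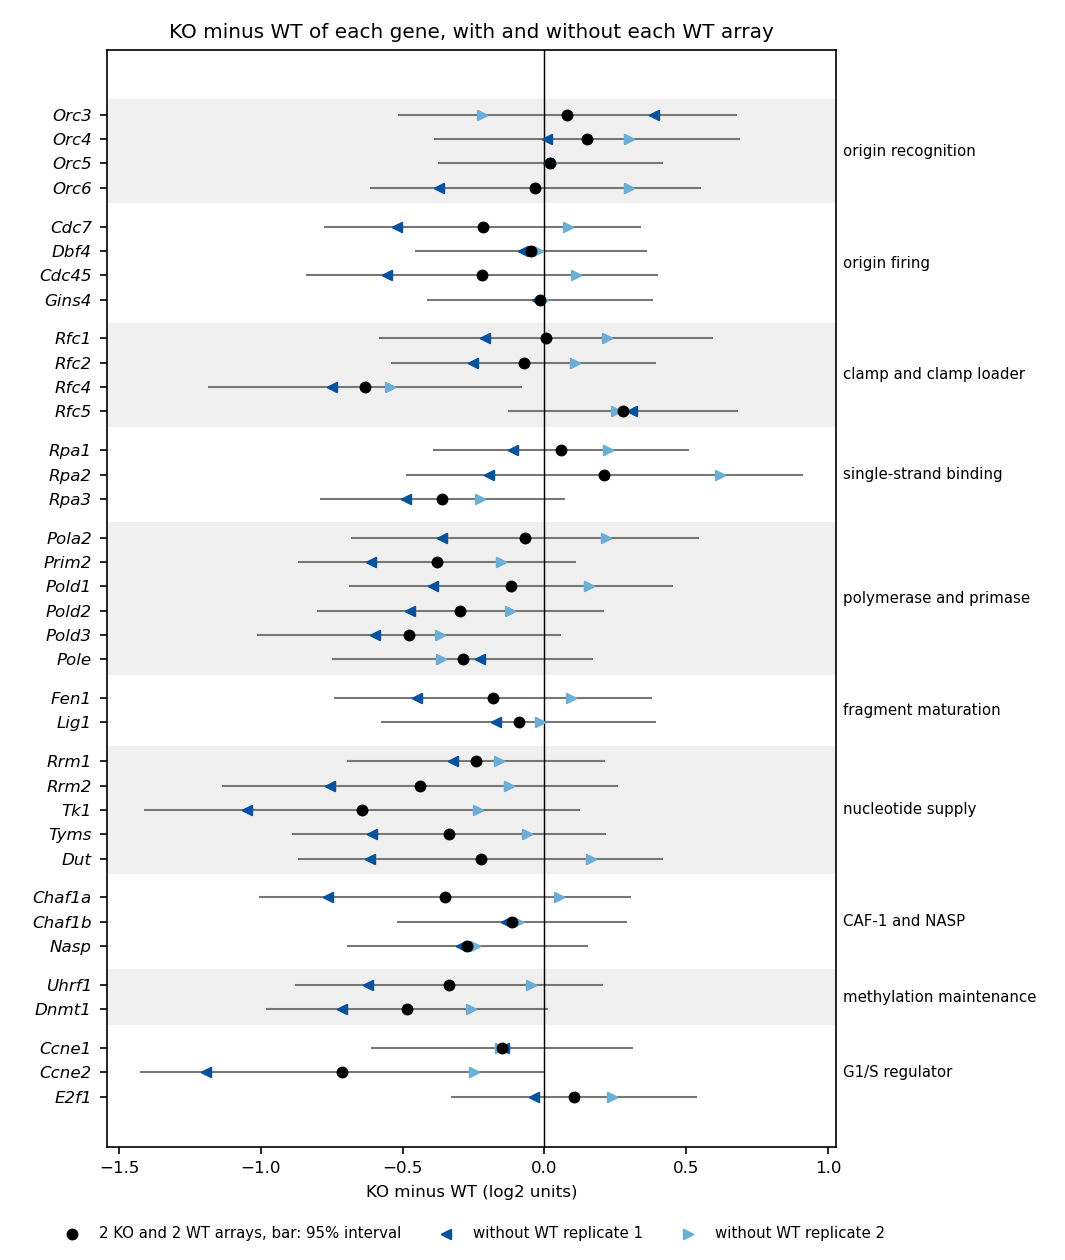
For each of the 36 tested genes, the black point is the KO minus WT difference in log2 units over 2 KO and 2 WT arrays with its 95% interval as a bar, the dark blue triangle the difference without WT replicate 1 and the light blue triangle that without WT replicate 2. The interval of 1 gene, Rfc4, lies wholly below 0, and for most genes the light blue triangle lies nearer to 0 than, or on the other side of 0 from, the dark blue one.

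The origin recognition complex, which marks where replication can start, did not lie lower in KO. Of its 6 genes, 4 were tested, and 3 of them had a difference above 0 (median 0.05; -0.02 with median scaling and -0.04 on the values scaled by the authors). Orc3 read 5.18 and 5.56 in KO, against 5.58 and 4.99 in WT. The lowest array was WT replicate 2 and the highest WT replicate 1, with KO between them, and the difference was 0.08 ± 0.25 (adjusted p = 0.973), or -0.05 with median scaling and -0.09 on the values scaled by the authors. Orc4, detected on 1 KO and 1 WT array, read 5.16 and 4.66 in KO, against 4.62 and 4.90 in WT. The genotypes overlapped, with a difference of 0.15 ± 0.23 (adjusted p = 0.940) that was -0.09 under both of those scalings. Orc5 was the steadiest gene of the complex, with 7.45 and 7.52 in the KO lines and with 7.46 and 7.47 in the WT lines. This gave a difference of 0.02 ± 0.17, while its second, dimmer probe read 7.17 and 7.04 in KO against 7.37 and 7.39 in WT, both KO lines lower, for -0.28 ± 0.17 (adjusted p = 0.775). The 2 probes of this gene do not give 1 direction. Orc6, the subunit least tightly bound to the rest, read 9.61 and 9.51 in KO, against 9.26 and 9.93 in WT. The WT lines stood on either side of both KO lines, and the difference was -0.03 ± 0.25 (0.01 with median scaling and 0.02 on the authors' scaled values).

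All 4 tested genes of origin firing had differences below 0, and in all 4 the genotypes overlapped (median -0.13). Cdc7, the kinase that starts the loaded helicase, read 6.98 and 6.85 in KO, against 6.83 and 7.43 in WT. WT replicate 1 was its lowest array and WT replicate 2 its highest, and the difference of -0.22 ± 0.24 (adjusted p = 0.893) was 0.08 without WT replicate 2. The study described a group of DNA synthesis genes as downregulated on arrays and called the fold changes very moderate. Its values were means over these constitutive KO lines and a conditional KO that is not included here. Dbf4, the subunit that activates Cdc7, is a gene for which the study reported a decrease by qPCR, a separate measure. On these arrays it read 8.43 and 8.27 in KO, against 8.37 and 8.43 in WT. The 4 arrays lay close together, for a difference of -0.05 ± 0.17 (adjusted p = 0.977) with a 95% interval between -0.46 and 0.36. Cdc45, which joins MCM and GINS in the moving helicase, read 6.37 and 6.01 in KO, against 6.08 and 6.74 in WT. Again WT replicate 2 stood above the other 3 arrays, and the difference of -0.22 ± 0.26 was 0.11 without it. Gins4, the GINS subunit measured here, differed by -0.02 ± 0.17 (0.02 with median scaling and 0.03 on the authors' scaled values).

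On the brightest tested probe of each gene, the clamp loader held the member with the lowest p-value, Rfc4, and that with the highest difference, Rfc5. Replication factor C opens the PCNA ring and closes it around primed DNA; Rfc1 is its large subunit and Rfc2 to Rfc5 are its small ones. Rfc4 read 5.58 and 5.01 in KO, against 5.83 and 6.04 in WT. Both KO lines were below both WT lines, with KO replicate 2 well below the other 3 arrays, and the difference was -0.63 ± 0.23, a ratio of 0.645 (unadjusted p = 0.031, adjusted p = 0.574, limma). It was -0.54 without WT replicate 2, -0.35 without KO replicate 2 and -0.24 with no background correction. On KO replicate 2 the Rfc4 probe was close to the detection limit, with a detection p of 0.016. The strict filter, a detection p under 0.01 on every array, therefore leaves Rfc4 out. Rfc5 read 6.51 and 6.37 in KO, against 6.19 and 6.14 in WT. It was the only tested member with both KO lines above both WT lines, and the difference of 0.28 ± 0.17 (adjusted p = 0.775) was between 0.21 and 0.34 with each array left out in turn. Rfc2 read 9.30 and 9.16 in KO, against 9.12 and 9.48 in WT, with KO between the WT lines and a difference of -0.07 ± 0.20. Rfc1 differed by 0.01 ± 0.25, so 2 tested genes of the clamp and its loader were lower and 2 higher in KO, with a median of -0.03 that was within 0.01 of 0 on the authors' scaled values. The subunits act in 1 complex, and Rfc4 and Rfc5 were both without overlap between genotypes, in opposite directions.

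RPA, the trimer that coats single-stranded DNA at the fork, was tested in full, and its subunits did not go 1 way. Rpa1, the large subunit, read 10.81 and 10.86 in KO, against 10.61 and 10.95 in WT. The KO lines lay between the WT lines, with a difference of 0.06 ± 0.19 (adjusted p = 0.973). Rpa2, the subunit phosphorylated after DNA damage, read 6.03 and 6.43 in KO, against 5.62 and 6.43 in WT. WT replicate 1 was low and the highest KO and WT lines were level, which gave 0.21 ± 0.29, the widest spread of the trimer. Rpa3, the small subunit, read 8.90 and 8.83 in KO, against 9.09 and 9.36 in WT. Both KO lines were below both WT lines, the difference was -0.36 ± 0.18, a ratio of 0.779 (adjusted p = 0.702), and it was -0.23 without WT replicate 2.

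The polymerases and primase were all on the low side in KO. All 6 tested genes of the 9 had differences below 0, and for all 6 both KO lines were below WT replicate 2. Their median was -0.29, which was -0.14 without WT replicate 2, -0.43 without WT replicate 1 and -0.14 with no background correction. Pold3, an accessory subunit of polymerase delta, read 6.06 and 5.54 in KO, against 6.17 and 6.39 in WT. Both KO lines were below both WT lines, KO replicate 2 most so, with a difference of -0.48 ± 0.23, a ratio of 0.718 (adjusted p = 0.680), which was -0.37 without WT replicate 2 and -0.21 without KO replicate 2. Prim2, the large primase subunit, read 6.25 and 6.31 in KO, against 6.44 and 6.89 in WT. The KO lines were near each other and below both WT lines, for -0.38 ± 0.21 (adjusted p = 0.732). A second, dimmer probe had the same sign, at -0.57 ± 0.18 (unadjusted p = 0.016, adjusted p = 0.543, limma). That probe was not detected on KO replicate 1 and read 4.75 and 4.85 in KO, near the dimmest detected signals (4.78 and 4.80), so its difference is uncertain in size. Without WT replicate 2 the brighter probe gave -0.15. Pole, the catalytic subunit of the leading-strand polymerase epsilon, read 5.25 and 4.91 in KO, against 5.44 and 5.30 in WT. Among the 6 tested genes of this sub-group, it was the only 1 whose highest array was WT replicate 1. The difference of -0.29 ± 0.19 (adjusted p = 0.798) was -0.11 without KO replicate 2 and between -0.44 and -0.23 without any other array. On KO replicate 2 the Pole probe was close to the detection limit, with a detection p of 0.025. Of the rest, Pold2, the second subunit of polymerase delta, differed by -0.30 ± 0.21 (-0.12 without WT replicate 2), its catalytic subunit Pold1 by -0.12 ± 0.24 and Pola2, which tethers polymerase alpha, by -0.07 ± 0.26. Pold1 and Pola2 had differences above 0 without WT replicate 2 (0.16 and 0.22).

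Okazaki fragments are trimmed by the flap nuclease Fen1 and sealed by DNA ligase 1. Fen1 read 8.98 and 8.69 in KO, against 8.74 and 9.29 in WT. WT replicate 2 was its highest array and KO lay on either side of WT replicate 1, and the difference of -0.18 ± 0.24 (adjusted p = 0.923) was 0.09 without WT replicate 2. Lig1 read 6.52 and 6.11 in KO, against 6.33 and 6.48 in WT, on the brightest of its 3 tested probes. The KO lines enclosed the WT lines, with a difference of -0.09 ± 0.20, and its other probes gave -0.29 ± 0.18 and -0.06 ± 0.17.

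Nucleotide supply was tested in full, with all 5 genes below 0. Their median was -0.34, which was -0.12 without WT replicate 2, -0.21 without KO replicate 2 and -0.61 without WT replicate 1. For all 5, WT replicate 2 was the highest array. Tk1, the cytosolic thymidine kinase of S phase cells, read 8.03 and 8.65 in KO, against 8.57 and 9.40 in WT. KO replicate 2 was level with WT replicate 1, KO replicate 1 was lower and WT replicate 2 higher. Its difference was -0.64 ± 0.32, a ratio of 0.640 (adjusted p = 0.70), and leaving out WT replicate 1 gave -1.05, WT replicate 2 -0.23 and KO replicate 1 -0.34. A dimmer Tk1 probe read 5.01 and 4.85 in KO, against 5.26 and 5.60 in WT, with no overlap and -0.50 ± 0.20 (unadjusted p = 0.037, adjusted p = 0.589, limma). In KO that probe was close to the detection limit, with a detection p of 0.019 and 0.035, so its difference is uncertain in size. Rrm2, the small subunit that sets the activity of ribonucleotide reductase in S phase, read 6.59 and 7.22 in KO, against 7.03 and 7.66 in WT. In each genotype replicate 2 was the higher by about the same amount, 0.64 in KO and 0.63 in WT, and KO replicate 2 exceeded WT replicate 1. The difference was -0.44 ± 0.29 (adjusted p = 0.798), and -0.28 ± 0.29 on a second probe. On the first probe it was -0.12 without KO replicate 1 or without WT replicate 2, and -0.76 without KO replicate 2 or without WT replicate 1. Tyms, which makes thymidylate, read 9.06 and 8.81 in KO, against 8.99 and 9.55 in WT. Without WT replicate 2 its difference of -0.34 ± 0.23 (adjusted p = 0.801) was -0.06.

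The brightest Tyms probe did not agree in sign with the others. Its 3 dimmer tested probes gave 0.10 ± 0.24, 0.18 ± 0.17 and 0.22 ± 0.17. Only the first of them was detected on every array, and on it the genotypes overlapped. The second of the dimmer probes read 4.93 and 5.03 in KO, against 4.80 and 4.80 in WT, where it was not detected. Set against the dimmest detected WT signals, it was 1.11-fold higher in KO, a value that leaves out the spread between lines. The 95% interval of its difference ran from -0.22 to 0.58 (adjusted p = 0.874, limma), so an increase was not established. Rrm1, the large subunit of ribonucleotide reductase, is the other member for which the study reported a decrease by qPCR. On these arrays it read 8.81 and 8.51 in KO, against 8.82 and 8.98 in WT. KO replicate 1 and WT replicate 1 were level, and KO replicate 2 was the lowest. The difference was -0.24 ± 0.19, a ratio of 0.846 (adjusted p = 0.837), with a 95% interval between -0.70 and 0.21, and it was -0.09 without KO replicate 2 and -0.16 without WT replicate 2. Dut, which removes dUTP so that uracil is not built into DNA, differed by -0.22 ± 0.27, and by 0.16 without WT replicate 2.

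The CAF-1 subunits and NASP, which are histone chaperones, were all 3 tested and all 3 lower in KO. Their median was -0.27, but -0.09 without WT replicate 2 and -0.15 without KO replicate 2. On the brightest tested probe of each, KO replicate 2 was the lowest array. Chaf1a, the large subunit of CAF-1, read 7.12 and 6.98 in KO, against 7.0 and 7.81 in WT. The KO lines and WT replicate 1 were level and WT replicate 2 stood apart, so that the difference of -0.35 ± 0.28 (adjusted p = 0.837) was 0.05 without that line. Chaf1b, the middle subunit, read 6.98 and 6.83 in KO, against 7.0 and 7.04 in WT. The KO lines were below the WT lines by a small margin, for -0.11 ± 0.17 (adjusted p = 0.940), and -0.04 without KO replicate 2. Nasp, which holds soluble H3 and H4, read 7.96 and 7.72 in KO, against 8.09 and 8.14 in WT. Here the WT lines were close to each other and both above KO, and the difference of -0.27 ± 0.18 (adjusted p = 0.790) was -0.15 without KO replicate 2 and between -0.39 and -0.24 without any other array. A second Nasp probe, nearly as bright, read 7.55 and 7.91 in KO, against 7.46 and 8.18 in WT. On that probe the genotypes overlapped, WT replicate 1 was the lowest array and the WT lines were 0.72 apart. Its difference was -0.09 ± 0.27, so the separation of the genotypes held on 1 of the 2 probes.

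Dnmt1 and Uhrf1 carry DNA methylation through replication: Uhrf1 binds half-methylated sites on new DNA and brings in Dnmt1, which methylates the new strand. Dnmt1 read 6.79 and 6.68 in KO, against 6.99 and 7.45 in WT. Both KO lines were below both WT lines, for -0.49 ± 0.21, a ratio of 0.714 (adjusted p = 0.637), and -0.26 without WT replicate 2. Uhrf1 read 8.04 and 7.93 in KO, against 8.03 and 8.61 in WT. KO and WT replicate 1 were level, and the difference of -0.34 ± 0.23 (adjusted p = 0.801) was -0.05 without WT replicate 2. Of the 3 promoter windows of Dnmt1 and the 2 of Uhrf1, 1 of each gene holds the E2F word. The 6 tested members with the word had differences of 0.08 (Orc3), -0.12 (Pold1), -0.48 (Pold3), -0.09 (Lig1), -0.34 (Uhrf1) and -0.49 (Dnmt1).

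The G1/S regulators held the member with the lowest difference. Ccne2, cyclin E2, an E2F target that with Cdk2 drives cells into S phase, read 5.68 and 5.71 in KO, against 5.94 and 6.87 in WT. The KO lines were nearly equal and below both WT lines, and the WT lines were 0.93 apart, the widest WT gap of the 36 genes. The difference was -0.71 ± 0.30, a ratio of 0.610 (adjusted p = 0.631), and leaving out WT replicate 1 gave -1.19, WT replicate 2 -0.25, and no background correction -0.35. Ccne1, cyclin E1, read 6.65 and 7.03 in KO, against 6.99 and 6.98 in WT. KO replicate 1 was low and the other 3 arrays level, with a difference of -0.15 ± 0.19 (adjusted p = 0.922) that was 0.04 without that array. E2f1, the activating E2F itself, read 8.91 and 8.92 in KO, against 8.67 and 8.96 in WT. Both KO lines lay just under WT replicate 2 and above WT replicate 1, for 0.10 ± 0.18 (adjusted p = 0.952).

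Other genes of the pathway, taken from lists put together by name, were read in the same fit. Of 29 further fork and origin genes, 21 were tested, with 17 lower in KO (81.0%, against 47.6% of all genes) and 4 higher (median -0.30). At an unadjusted p under 0.05, 1 was lower (Pole4) and 0 higher, against 3.54% and 4.59% of all genes. WT replicate 2 was the highest array for 16 (76.2%, against 29% of all genes). Pole4, a small subunit of polymerase epsilon, differed by -0.64 ± 0.20, Top2a, which untangles replicated DNA, by -0.50 ± 0.23, and Atad5, which unloads PCNA, by -0.40 ± 0.19, each with both KO lines below both WT lines and none past the adjusted threshold. Pole4 read 4.70 on KO replicate 1, under the dimmest detected signal of that array (4.78), so its level there was not measured. Of 17 further nucleotide synthesis genes, 13 were tested, with 5 lower and 8 higher in KO (median 0.08) and 0 at an unadjusted p under 0.05. Tk2, the mitochondrial thymidine kinase, differed by 0.30 ± 0.18, Ppat, the first enzyme of purine synthesis, by -0.27 ± 0.18, and Dtymk, thymidylate kinase, by -0.23 ± 0.19. Of 19 further G1/S genes, 12 were tested, with 4 lower and 8 higher (median 0.15), 0 at an unadjusted p under 0.05, and WT replicate 2 the highest for 2. Cdk6 (0.30 ± 0.18), E2f2 (0.26 ± 0.18) and Ccnd1, cyclin D1 (0.23 ± 0.18), had both KO lines above both WT lines. In WT, Cdk6 read 4.67 and 4.39 and E2f2 4.73 and 4.45, under the dimmest detected signals of those arrays (4.81 and 4.83). Cdk6 and E2f2 were thus tested only through the KO arrays, and their WT levels, and so their differences, were not measured.

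Mitosis genes, which act after S phase, also had their highest median on WT replicate 2 and their lowest on KO replicate 2. Of 20, 11 were tested, and for all 11 the difference was below 0 (median -0.44) and WT replicate 2 the highest array. Over all genes, 47.6% had a difference below 0 and 29% had WT replicate 2 as the highest array. Tpx2, a spindle factor, differed by -0.72 ± 0.23, Kif23, a cytokinesis kinesin, by -0.59 ± 0.21 and Cdc20, which turns on the ubiquitin ligase of anaphase, by -0.58 ± 0.27. Tpx2 read 4.60 and 4.49 in KO, under the dimmest detected signals of those arrays (4.78 and 4.80), against 4.98 and 5.56 in WT. It was thus detected in WT only, and the size of its difference was not measured. At an unadjusted p under 0.05, 2 of the 11 were lower, against 3.54% of all genes, and 0 passed the adjusted threshold. The 2 were Kif23 and Tpx2, and Tpx2 passed the detection filter only through the WT arrays. Set against the 4-array mean, the median of the list was -0.18 and -0.29 in KO, against -0.09 and 0.57 in WT.

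**Figure D3:**
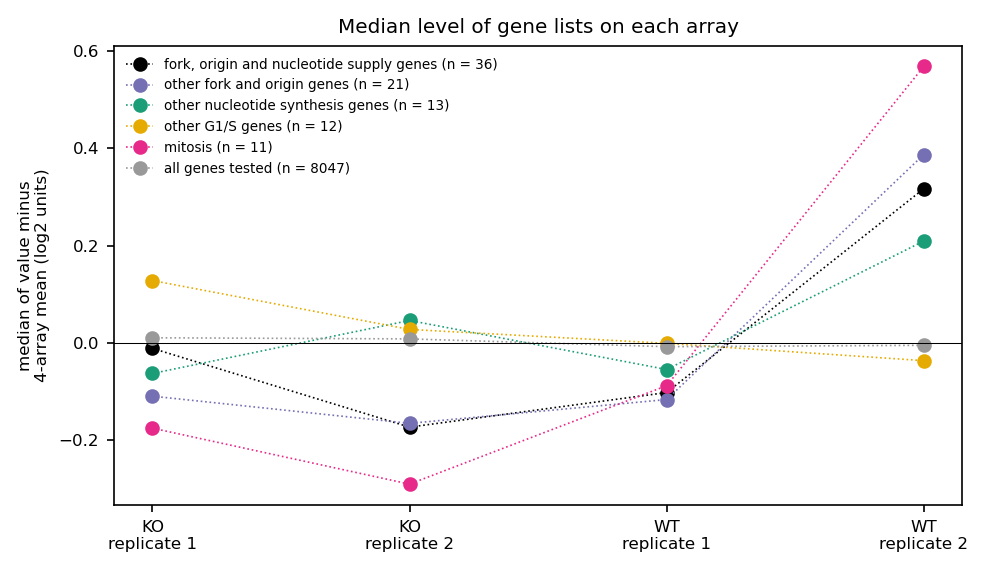
For each gene list, the y axis gives the median over its tested genes of the log2 value minus the mean of the 4 arrays, with the KO arrays to the left of the WT arrays on the x axis; dotted lines join the points of a list and stand for no measurement between arrays. The replication genes described here (black) lie at 0.32 on WT replicate 2 and between -0.17 and -0.01 on the other 3 arrays, mitosis genes (pink) at 0.57 and between -0.29 and -0.09, and all genes tested (grey) near 0 on every array.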

How the data were processed

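Total RNA of 2 KO and 2 WT MEF lines was hybridized to Illumina MouseRef-8 BeadChips, 1 array per line, and the authors used GenomeStudio to summarise beads by probe. The deposited table holds a signal intensity per probe, neither background-subtracted nor scaled, and the authors' detection p-value against negative control probes. A second deposited table, of intensity scaled by the authors with 1 factor per array (0.884 and 0.883 for KO, 1.16 and 1.15 for WT), served as an alternative. The number of arrays limits the precision.

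Signals were corrected by normexp from the detection p-values (offset 16), quantile normalized and taken to log2 (neqc, limma 3.58.1, R 4.3.3). Probes were kept if 2 or more arrays had a detection p under 0.05 (11552 of 25697, 672 of them with no gene name). By the platform annotation 23978 probes had 1 gene, 0 several and 1719 none. Each of 8047 genes took the values of its brightest tested probe, which for 2060 of them meant a choice among several. KO minus WT was fitted with lmFit and tested two-sided after eBayes, on 2 residual and 4.86 prior degrees of freedom, with adjustment by Benjamini-Hochberg over all probes tested. A permutation of 2 against 2 arrays cannot give an exact p under 0.333. Bounds ("at least") set the detected lines against the dimmest detected signal of the arrays of the other genotype.

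The members and lists were chosen with earlier results of these data known, so counts and medians over them are descriptions. Values per array are printed for up to 3 members with the smallest p in each sub-group, for Rrm1 and Dbf4, and for members whose probes disagree in sign or were detected in 1 genotype only; of other lists, the 3 genes with the smallest p are named. Median scaling moved the median difference of all genes to 0.28, which was subtracted. At an unadjusted p under 0.05, 285 genes were lower and 369 higher; with median scaling these were 103 and 1812 before and 437 and 300 after the subtraction. Other alternatives were no background correction, an offset of 50, keeping undetected probes, keeping only probes with a detection p under 0.01 on every array (strict filter), trended and robust variances, a block for line number, the mean over probes, and each array left out, which borrows the spread of the complete genotype for the lone array.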

Additional observations from a re-analysis of the deposited data

How the results depend on the processing

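The count of members past the adjusted threshold was 0 in each of the alternatives run, 28 of 36 members were lower in KO under each of those that kept all 4 arrays except the strict filter (26 of the 32 left), and the median difference of the members, -0.20 in the reported fit, was -0.093 with no background correction, -0.14 with an offset of 50, -0.16 with median scaling, -0.13 on the authors' scaled values and -0.16 with the mean over probes. With no background correction 36 of 36 members had a difference smaller in size, 19 of them by over 1.5 times. With each array left out in turn, 20 to 32 members were lower and their median was -0.37 to -0.02, the values nearest 0 being those without WT replicate 2. Without WT replicate 1, 32 members were lower, where 48.2% of all genes were, and without WT replicate 2, 20 were lower, where 47.2% of all genes were. The number of genes past the adjusted threshold, 1 in the reported fit (H3f3b), was 0 under the strict filter, which leaves out H3f3b (246 genes lower and 281 higher at an unadjusted p under 0.05), 20 with trended and robust variances, 2 with the line number as a replicate block and 1 to 21 with each array left out, 21 without WT replicate 1; the cause was not tested. Over all tested probes, lines of the same number did not deviate together (r = -0.04). With 2 lines per genotype this cannot tell whether such lines were handled together. The block changed no call among the members. With median scaling the sign turned for Orc3 (-0.053), Orc4 (-0.087), Orc6 (0.010), Gins4 (0.022) and the median of origin recognition (-0.021). On the authors' scaled values it turned for Orc3 (-0.089), Orc4 (-0.093), Orc6 (0.021), Gins4 (0.033), origin recognition (-0.037) and the clamp and its loader (0.00017), and with the strict filter for those medians (-0.0058 and 0.0067), which then rest on 2 and 3 genes; the cause was not tested. With each array left out, differences crossed 0 for Orc3 -0.22 to 0.38, Orc4 -0.099 to 0.38, Orc5 -0.014 to 0.059, Orc6 -0.37 to 0.30, Cdc7 -0.52 to 0.084, Dbf4 -0.12 to 0.034, Cdc45 -0.56 to 0.11, Gins4 -0.048 to 0.014, Rfc1 -0.26 to 0.27, Rfc2 -0.25 to 0.11, Rpa1 -0.11 to 0.22, Rpa2 -0.20 to 0.62, Pola2 -0.36 to 0.22, Pold1 -0.39 to 0.16, Fen1 -0.45 to 0.093, Lig1 -0.30 to 0.11, Dut -0.61 to 0.16, Chaf1a -0.76 to 0.052, Ccne1 -0.34 to 0.040, E2f1 -0.037 to 0.24. The medians that crossed 0 were origin recognition -0.0092 to 0.16, origin firing -0.30 to 0.039, clamp and clamp loader -0.23 to 0.16, single-strand binding -0.20 to 0.22, fragment maturation -0.31 to 0.038, G1/S regulator -0.34 to 0.040. The differences that kept their sign ranged over Rfc4 -0.90 to -0.35, Rfc5 0.21 to 0.34, Rpa3 -0.49 to -0.23, Prim2 -0.61 to -0.15, Pold2 -0.48 to -0.12, Pold3 -0.73 to -0.21, Pole -0.44 to -0.11, Rrm1 -0.39 to -0.086, Rrm2 -0.76 to -0.12, Tk1 -1.05 to -0.23, Tyms -0.61 to -0.060, Chaf1b -0.18 to -0.039, Nasp -0.39 to -0.15, Uhrf1 -0.62 to -0.049, Dnmt1 -0.72 to -0.26, Ccne2 -1.19 to -0.25, and the medians that did so over polymerase and primase -0.43 to -0.14, nucleotide supply -0.61 to -0.12, CAF-1 and NASP -0.39 to -0.094, methylation maintenance -0.67 to -0.15. With 2 lines per genotype, 0 of 36 differences of this size passed the test, and the number of arrays limits the precision.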
